A study of Mus musculus with 16 samples.

Results

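Oocytes are few among the cells of the ovary, yet they carry a distinctive set of transcripts. The 36 genes described here are named for that set: growth factors the oocyte secretes, proteins of its zona pellucida, oocyte transcription factors, proteins of the subcortical maternal complex, further maternal-effect factors and RNA-binding proteins of germ cells. They were chosen by gene symbol from 55426 genes in the table, and all 36 were present and passed the filter on low counts that left 18833 genes to test. Each had counts in all 16 libraries, the lowest being 9 counts for Sohlh2 in 1 library.

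RNA was sequenced from whole ovaries, with 1 ovary from each female mouse of the inbred strain C57BL/6NHsd and 4 mice in each of 4 groups. The On T mice were given 0.9 mg testosterone enanthate, a long-acting ester of testosterone, by weekly injection for 6 weeks from an age of 9 to 10 weeks, and were 16 weeks old when killed. Their controls were injected with sesame oil alone and were also 16 weeks old; they are called the younger controls here. The Post T mice had the same 6 weeks of injections, were then left untreated until cycles returned, and were killed after 4 cycles at 24 to 28 weeks of age. Their controls, called the older controls here, had sesame oil and were 24 to 28 weeks old. Every mouse of all 4 groups was in diestrus. The comparisons ask how testosterone, and a period without it afterwards, relates to the ovary's transcripts; the older against the younger controls shows the difference between the oil-treated cohorts, in which age and cohort cannot be told apart.

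An oocyte grows inside a follicle, a shell of granulosa cells, for weeks before ovulation. Follicles begin as a resting pool of primordial follicles, whose small oocytes depend on transcription factors such as FIGLA, NOBOX, SOHLH1, SOHLH2 and LHX8 for survival and for entry into growth. A growing oocyte then makes its zona pellucida, secretes GDF9 and BMP15 to the granulosa cells around it, and stores the messenger RNAs and proteins that the early embryo will use. In RNA from whole ovaries, fewer oocytes and less RNA per oocyte cannot be told apart.

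Library totals lay between 26598055 and 52659637 counts. The levels below are counts relative to library size (CPM) after scaling of library sizes, and a difference is a log2 fold change with its standard error (SE) from edgeR's quasi-likelihood test, called when its p adjusted over all 18833 genes was below 0.05. The summed level of the 36 genes, in TPM (a transcript measure that also allows for gene length), was 691 to 1289 in the younger controls, 671 to 745 in On T, 577 to 809 in the older controls and 550 to 681 in Post T. The younger controls spread most. In their library 3, 35 of the 36 genes lay above the group's mean, by 0.44 on average on the log2 scale, and in their library 4 all 36 lay below it, by 0.55 on average. Calls against this group that were lost without both libraries are given with that value. Other cell types differed between the groups as well. Of 10 corpus luteum markers 8 were lower in On T and 7 were lower in Post T; their summed level was 5026 to 6925 TPM in the younger controls, 655 to 2216 in On T, 4433 to 7704 in the older controls and 1250 to 3039 in Post T. Of 8 macrophage markers 6 were higher in On T and 7 were higher in Post T, with sums of 313 to 479, 725 to 1369, 555 to 1323 and 5192 to 7365 TPM in the same order of groups. Of 6 theca markers 1 was higher in On T and 2 were higher in Post T, and of 8 surface epithelium markers none was called in either. Of 14 markers of granulosa cells 1 was higher in each comparison, and their sums overlapped between each treated group and its controls. No luteal, macrophage or granulosa marker was at 0 throughout a group. These marker lists were chosen with earlier results of these data known, so their counts are a description and not a test. Over all genes, 4.24% were called higher and 5.03% lower in On T, and 7.49% and 4.81% in Post T. The part of the shifts in other cell types in the oocyte results was not tested. Markers of the oviduct, which can be caught in dissection, summed to at most 7.43 TPM in any library.

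The upstream sequences of 4 of the genes are shown because 3 of them, Sohlh1, Sohlh2 and Figla, encode the basic helix-loop-helix factors whose levels the results turn on, and Zp3 is a zona gene on which FIGLA is known to act through an E-box in mice. Factors of this class bind E-boxes, spelled CANNTG, a motif that reads the same on both strands. Each run is the 250 bases before the RefSeq start of the gene in GRCm38.p6, 5′ to 3′ on the gene's own strand, with every CANNTG in capitals. The regions are chr2:25847249-25847498 (minus strand) for Sohlh1, chr3:55181794-55182043 (plus) for Sohlh2, chr6:86016941-86017190 (plus) for Figla and chr5:135979855-135980104 (plus) for Zp3.
Sohlh1: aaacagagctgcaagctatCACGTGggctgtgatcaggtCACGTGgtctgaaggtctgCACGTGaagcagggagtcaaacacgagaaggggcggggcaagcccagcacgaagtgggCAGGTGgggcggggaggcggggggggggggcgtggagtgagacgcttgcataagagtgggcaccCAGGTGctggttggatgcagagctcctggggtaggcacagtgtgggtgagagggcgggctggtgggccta
Sohlh2: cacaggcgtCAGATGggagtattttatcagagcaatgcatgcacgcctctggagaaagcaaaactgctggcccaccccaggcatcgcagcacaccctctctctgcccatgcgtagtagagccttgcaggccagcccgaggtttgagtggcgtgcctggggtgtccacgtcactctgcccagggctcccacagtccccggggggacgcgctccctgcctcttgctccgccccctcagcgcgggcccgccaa
Figla: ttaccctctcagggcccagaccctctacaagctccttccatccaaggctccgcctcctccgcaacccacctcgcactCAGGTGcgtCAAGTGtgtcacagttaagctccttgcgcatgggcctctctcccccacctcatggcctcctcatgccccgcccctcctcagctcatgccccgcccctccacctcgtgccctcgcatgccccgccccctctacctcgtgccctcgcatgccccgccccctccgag
Zp3: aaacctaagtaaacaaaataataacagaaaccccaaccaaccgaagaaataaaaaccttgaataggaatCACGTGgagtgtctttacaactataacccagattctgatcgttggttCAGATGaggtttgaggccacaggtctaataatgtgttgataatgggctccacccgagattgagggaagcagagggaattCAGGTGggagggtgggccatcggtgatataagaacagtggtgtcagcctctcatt

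The Sohlh1 window held 5 CANNTG matches, of which 3 read CACGTG, beginning 231, 211 and 192 bases before the start. The Sohlh2 window held 1 match (CAGATG, 241 bases before the start), the Figla window 2, beginning 173 and 164 bases before it, and the Zp3 window 3, of which 1 read CACGTG. The Figla window is inside the gene as GENCODE draws it, since GENCODE's start for this gene is further upstream (86016171 on chromosome 6). The upstream window of Uchl1 held none. Of 32851 RefSeq windows of this length, 66.2% held at least 1 CANNTG and 6.02% held CACGTG. An entry existed for 27 of the 36 genes, with 30 windows among them, and 23 and 4 of these genes held the motifs in any window. These counts are per gene and the shares above are per window, so they are not in the same unit. A match is a run of letters and is not evidence of binding.

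**Figure D1:**
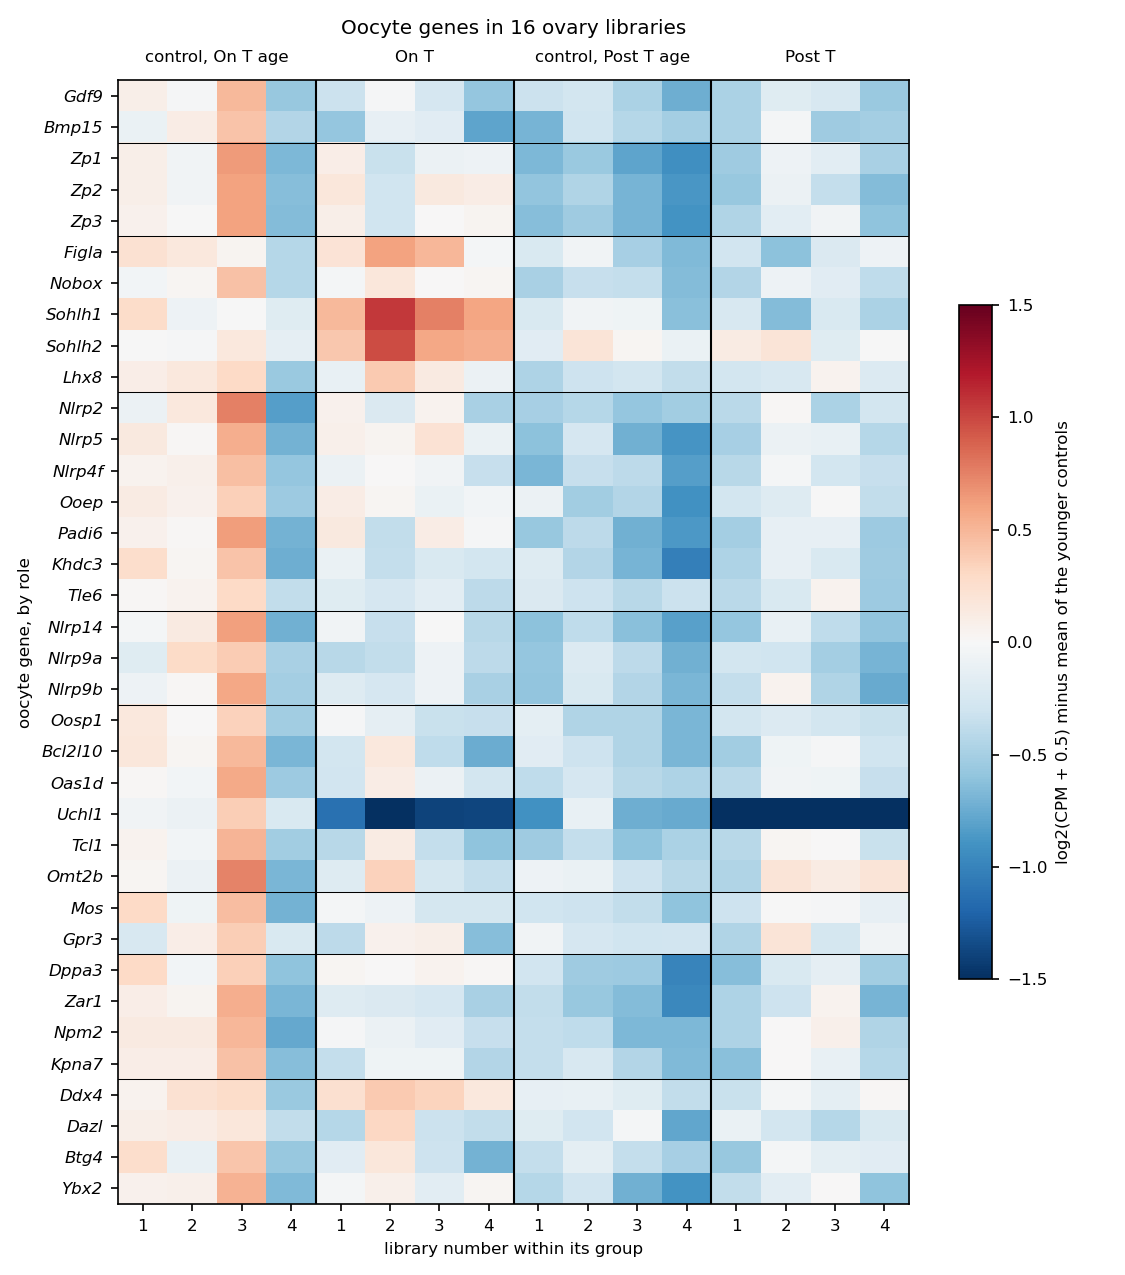
Level of each of the 36 oocyte genes (rows, grouped by role) in each of the 16 libraries (columns, 4 per group), as log2(CPM + 0.5) minus the gene's mean in the younger controls; red is higher and blue is lower, and values beyond 1.5 in either direction have the end colour. Library 3 of the younger controls is red and library 4 blue in almost every row, Sohlh1 and Sohlh2 are red in all 4 On T libraries, and Uchl1 is dark blue in both treated groups.

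During testosterone 3 of the oocyte genes were called and 33 were not. Sohlh1 and Sohlh2 were higher in On T than in the younger controls and Uchl1 was lower. These were 3 of 36 genes, or 8.33%, called in either direction; over all genes tested, 9.27% were called (4.24% higher and 5.03% lower), so the share among oocyte genes was near the background. The 33 genes that were not called had log2 fold changes of -0.43 to 0.45 (edgeR adjusted p 0.175 to 0.992), with a median SE of 0.20. In sign, 30 of the 36 lay below 0, and the median of the 36 was -0.22 against -0.01 over all genes. That median moved with single control libraries, to -0.01 without library 3 and to -0.38 without library 4. An unadjusted p below 0.05 was found for 4 of the 36, or 11.1%, against 22.3% of all genes.

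After testosterone had been stopped, Uchl1 alone was called against the older controls. It made up 2.78% of the 36 genes, where 12.3% of all genes were called, 7.49% higher and 4.81% lower. The other 35 genes ran from -0.23 to 0.44 in log2 fold change (edgeR adjusted p 0.210 to 0.966). In sign 34 of the 36 were above 0, with a median of 0.20 against -0.01 over all genes. The test of the difference between the Post T and the On T effect called none of the 36, where it called 3.25% of all genes, 2.93% higher and 0.324% lower. An unadjusted edgeR p below 0.05 was found for 4 of the 36, or 11.1%, beside 14.3% of all genes. DESeq2 called 1 of the 36, Sohlh1, and its count over all genes is given with the dependence on processing below. Of the 36 differences 32 were above 0, with a median of 0.41, and the largest in size was that of Sohlh1.

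In the direct comparison of Post T with On T, Sohlh1, Sohlh2 and Figla were lower in Post T and no oocyte gene was higher. These 3 genes again came to 8.33%, beside 13.3% of all genes called (8.69% higher and 4.60% lower). The groups differ in age as well as in the time since testosterone, and which of these goes with the difference cannot be told apart in this comparison alone. The 4 libraries of Post T all lay below the 4 of On T for 6 of the 36 genes, Figla, Nobox, Sohlh1, Sohlh2, Dppa3 and Ddx4, and for 6.83% of all genes. In no oocyte gene did they all lie above, where they did so for 11.1% of all genes.

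Between the control groups, all 36 genes were lower at 24 to 28 weeks than at 16 weeks in point estimate, and none was called. Their log2 fold changes ran from -0.83 for Zp1 to -0.01 for Sohlh2, with a median of -0.54 against -0.01 over all genes. The estimate for Sohlh2 turned to just above 0 when libraries were scaled by median-of-ratios size factors. edgeR called 0 of all 18833 genes in this comparison (0%), and the smallest adjusted p among the 36 was 0.201. An unadjusted p below 0.05 was found for 27 of the 36, or 75.0%, beside 1892 genes or 10.0% of all. DESeq2 called 173 of all genes, including Zp1 (log2 -0.80, DESeq2 adjusted p = 0.0266) and Zp3 (log2 -0.74, DESeq2 adjusted p = 0.0394). The libraries of the control groups overlapped for every one of the 36 genes. Over all genes, 2.61% had every older library below every younger one, and 3.28% had every older library above. The median was -0.35 without library 3 of the younger controls and -0.68 without library 4. Because all 36 genes come from the same ovaries and moved together in single libraries, their number is not a count of independent results.

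**Figure D2:**
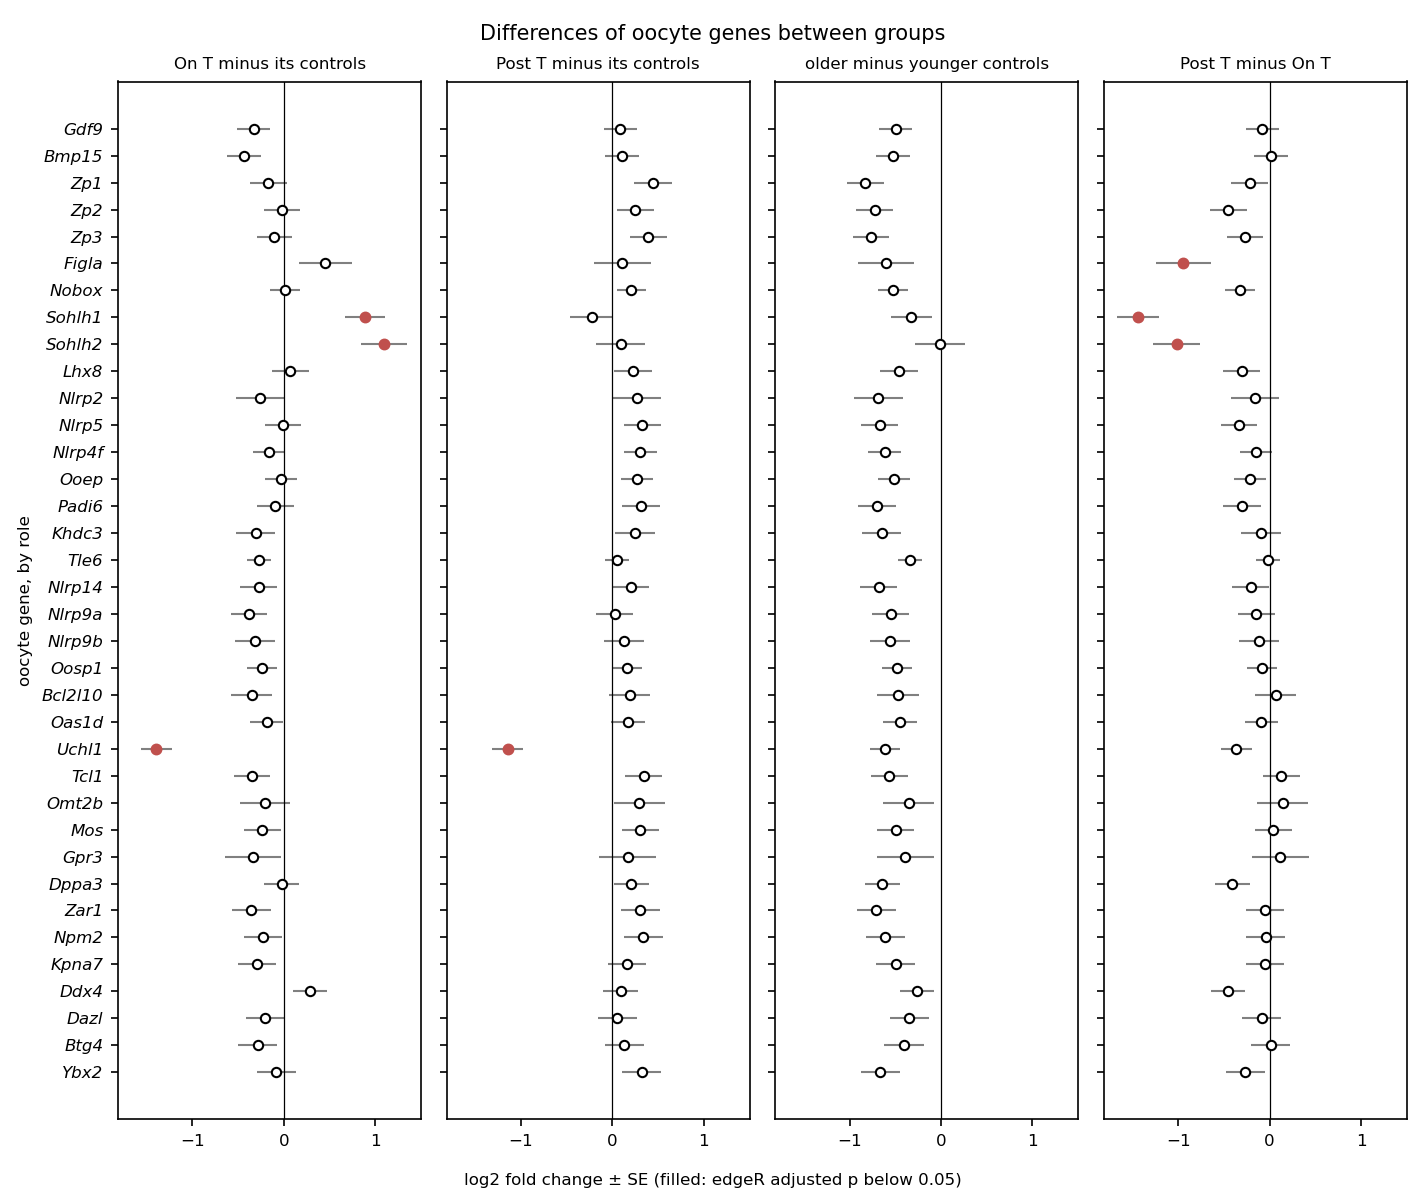
Log2 fold change of each oocyte gene (rows, grouped by role) in 4 comparisons, with bars of 1 SE; filled points have an edgeR adjusted p below 0.05. Filled points are Sohlh1, Sohlh2 and Uchl1 for On T, Uchl1 for Post T, none between the controls, and Figla, Sohlh1 and Sohlh2 for Post T minus On T.

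Of the 9 role groups, the oocyte transcription factors held 2 of the 3 genes called in On T and all 3 called between Post T and On T. The group has 5 genes, and 9.27% and 13.3% of all genes were called in these comparisons. Both comparisons use the same 4 On T libraries, so calls in the second are not separate support for those in the first. The genes were chosen with earlier results of these data known, so these counts are a description and not a test. Sohlh1, a basic helix-loop-helix factor of germ cells that primordial follicles need, read 2.03, 1.49, 1.58 and 1.34 CPM in the younger controls and 2.44, 3.87, 3.04 and 2.66 in On T. In the older controls it read 1.29, 1.53, 1.51 and 0.861 CPM, and in Post T 1.28, 0.832, 1.29 and 1.02. All 4 On T libraries lay above all 12 others. The gene (ENSMUSG00000059625) is protein-coding and is annotated by GENCODE at chromosome 2, minus strand, 25842995 to 25847248 (GRCm38). The mean rose from 1.61 ± 0.296 to 3.00 ± 0.628 CPM (SD, n = 4) with testosterone, or by 0.89 in log2 with an SE of 0.22 (adjusted p = 0.0174 by edgeR). In Post T the mean of 1.10 ± 0.221 was close to 1.3 ± 0.311 in the older controls (log2 -0.23, SE 0.23, edgeR adjusted p = 0.646). The level in Post T was lower than in On T (log2 -1.44, SE 0.23, edgeR adjusted p = 0.000350). The difference between the effects was -1.11 (SE 0.32) and missed the threshold (edgeR adjusted p = 0.0752); DESeq2 called it (adjusted p = 0.0252), as did limma on log2(TPM + 1) (adjusted p = 0.0403). The On T rise rests on some single libraries. Its edgeR adjusted p was 0.0563 without library 2 of the younger controls, 0.0650 without their library 4, 0.0540 without On T library 2, and 0.200 without libraries 3 and 4 of the controls together. The log2 value stayed between 0.65 and 1.02 over all alternatives.

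Sohlh2, the close partner of SOHLH1 in germ cells, was the least abundant of the 36 genes, with a median of 0.320 TPM. The gene (ENSMUSG00000027794) is annotated at chromosome 3, plus strand, 55182028 to 55209957. It read 0.454, 0.441, 0.562 and 0.369 CPM in the younger controls and 0.762, 1.38, 0.925 and 0.895 in On T, with no overlap. The older controls read 0.351, 0.593, 0.474 and 0.393 and Post T read 0.541, 0.594, 0.340 and 0.451 CPM, which overlap each other. The rise in On T came to a log2 of 1.10 with an SE of 0.25 (adjusted p = 0.0113 by edgeR), from 0.456 ± 0.0799 to 0.990 ± 0.267 CPM (SD, n = 4). Without libraries 3 and 4 of the younger controls it was 1.14 with an edgeR adjusted p of 0.0882. In Post T it differed from the older controls by 0.09 (SE 0.27, edgeR adjusted p = 0.901), and from On T by -1.02 (SE 0.25, edgeR adjusted p = 0.0134). The difference between the effects was -1.01 (SE 0.37, edgeR adjusted p = 0.196). Sohlh1 and Sohlh2 were the 2 oocyte genes whose On T libraries all lay above their controls, where 7.22% of all genes did so.

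Figla, the helix-loop-helix factor that switches on the zona genes, read 1.21, 1.12, 0.997 and 0.579 CPM in the younger controls and 1.18, 1.70, 1.56 and 0.924 in On T. Figla (ENSMUSG00000030001) is annotated at chromosome 6, plus strand, 86016171 to 86020996. These groups overlap (log2 0.45, SE 0.29, edgeR adjusted p = 0.397). The older controls read 0.740, 0.906, 0.533 and 0.418 CPM and Post T 0.688, 0.446, 0.747 and 0.880, which overlap too (log2 0.11, SE 0.31, edgeR adjusted p = 0.895). All Post T libraries lay below all On T libraries, and Post T was lower than On T by a log2 of -0.94 (SE 0.30, edgeR adjusted p = 0.0466). That call is fragile: it was kept under 9 of 24 alternatives, and the adjusted p reached 0.143 without Post T library 2. With the replicate number as a block it was 0.0671. For Figla the difference between the Post T and the On T effect was -0.34 (SE 0.43, edgeR adjusted p = 0.788). Its level was also lower in the older than in the younger controls in point estimate (log2 -0.60, SE 0.31, edgeR adjusted p = 0.536).

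Nobox, a homeobox factor of early oocytes, read 8.32, 8.79, 11.9 and 6.24 CPM in the younger controls and 8.40, 9.70, 8.62 and 8.81 in On T. The On T libraries fell inside the range of the controls, and the difference was 0.01 in log2 (SE 0.16, edgeR adjusted p = 0.977). The older controls read 6.00, 6.65, 6.57 and 5.31 CPM and Post T 6.22, 8.11, 7.57 and 6.48 (log2 0.21, SE 0.16, edgeR adjusted p = 0.511). Lhx8, a LIM homeobox factor of the same stage, differed by 0.07 (SE 0.20) in On T and 0.23 (SE 0.21) in Post T, with edgeR adjusted p of 0.880 and 0.593. All 4 Post T libraries of Lhx8, at 2.29 to 2.99 CPM, lay just above the older controls at 1.95 to 2.28. In On T all 5 factors were above 0 in log2, by 0.01 to 1.10, and 2 were called. Whether the 5 differ from each other in size was not tested.

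**Figure D3:**
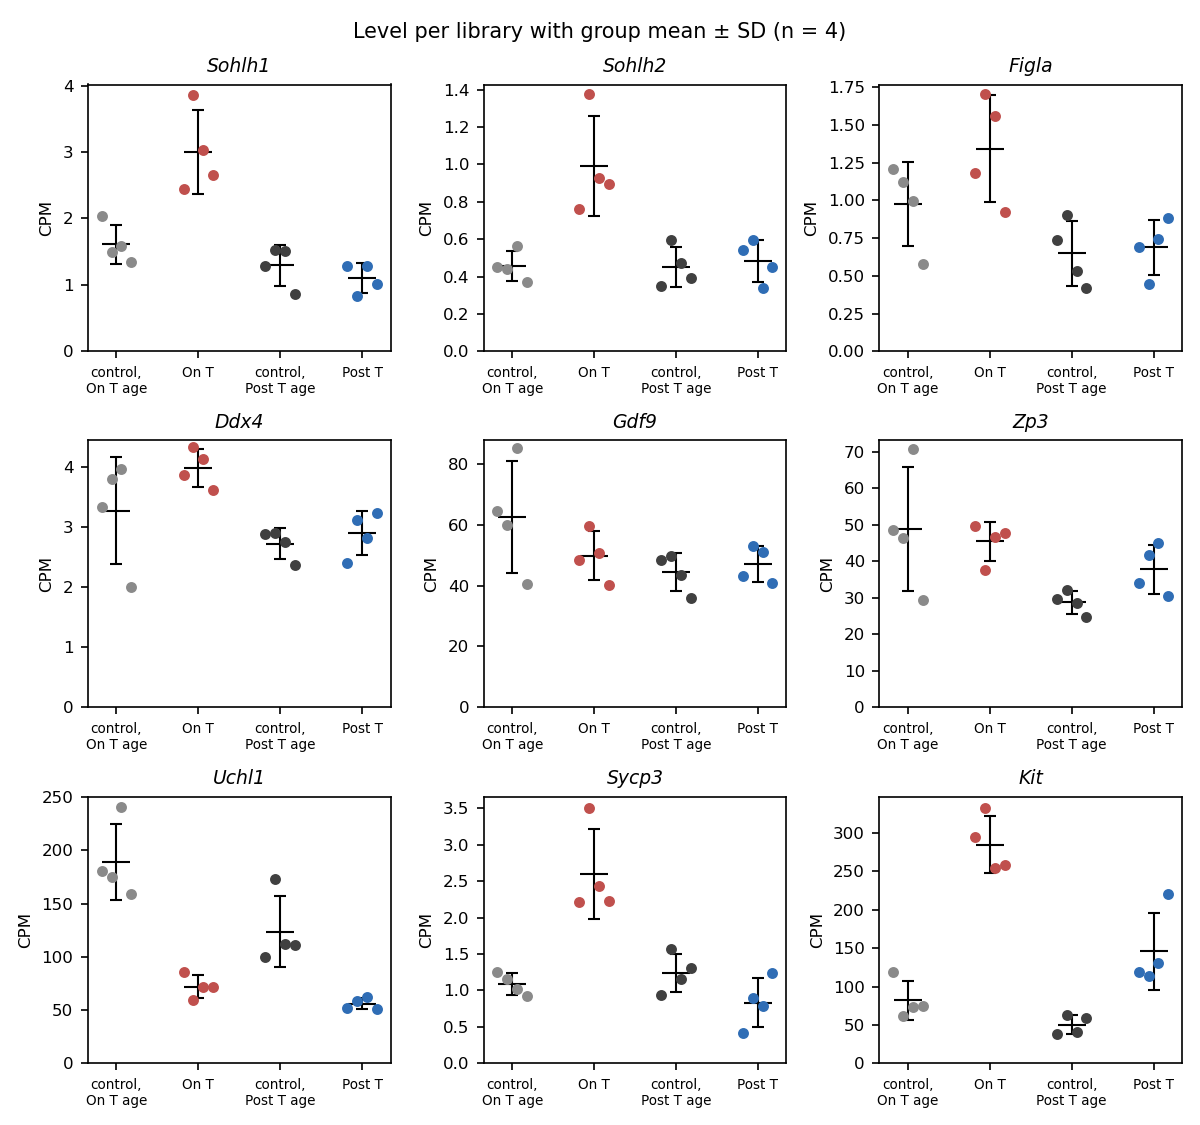
Level in CPM of 9 genes in each library (points), with the group mean and SD (bars, n = 4) and axes that start at 0. The On T points of Sohlh1, Sohlh2, Sycp3 and Kit lie above all their controls, those of Uchl1 lie below, and those of Figla, Ddx4, Gdf9 and Zp3 overlap them.

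Both secreted growth factors of the oocyte kept levels that overlapped their controls. Gdf9, which granulosa cells need to proliferate and form further layers, read 64.5, 59.8, 85.2 and 40.6 CPM in the younger controls and 48.4, 59.7, 50.8 and 40.3 in On T (log2 -0.33, SE 0.18, edgeR adjusted p = 0.301). It read 48.4, 49.7, 43.5 and 36.1 in the older controls and 43.3, 53.2, 51.0 and 41.0 in Post T (log2 0.09, SE 0.18, edgeR adjusted p = 0.851). Of the Post T libraries 2 lay above every older control and 2 among them; of the On T libraries 3 lay within the range of their controls and 1 just below it. Bmp15, its partner on the X chromosome, read 23.1, 26.8, 33.8 and 18.3 CPM in the younger controls and 16.5, 22.7, 22.1 and 14.2 in On T. Its log2 fold change of -0.43 (SE 0.19) was the lowest among the genes not called (edgeR adjusted p = 0.175). In the later groups Bmp15 read 15.2, 20.1, 18.3 and 17.4 in controls and 17.8, 24.3, 17.0 and 17.4 in Post T (log2 0.11, SE 0.19, edgeR adjusted p = 0.810).

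The zona pellucida genes Zp1, Zp2 and Zp3, which encode the glycoprotein coat of the oocyte, had the largest differences of the 36 between the control groups and small ones in On T. Zp3 read 48.6, 46.3, 70.8 and 29.4 CPM in the younger controls and 29.7, 32.1, 28.5 and 24.7 in the older ones, which overlap only through library 4 of the former (log2 -0.76, SE 0.20, edgeR adjusted p = 0.211). In On T it read 49.7, 37.6, 46.6 and 47.9 CPM, inside the control range (log2 -0.10, SE 0.20, edgeR adjusted p = 0.807). In Post T it read 34.0, 41.8, 45.0 and 30.4, of which 3 lay above every older control (log2 0.39, SE 0.20, edgeR adjusted p = 0.251). Zp1 and Zp2 had log2 fold changes of -0.17 and -0.02 in On T, 0.44 and 0.25 in Post T, and -0.83 and -0.72 between the controls, with no call by edgeR. All 4 Post T libraries of Zp1 lay above the older controls, at 17.4 to 24.0 against 13.2 to 17.1 CPM. Zp1 and Lhx8 were the 2 oocyte genes of which this was true, where 9.62% of all genes did so.

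None of the 7 genes of the subcortical maternal complex group was called in any of the 5 comparisons. The complex is a protein assembly under the oocyte membrane that the embryo needs for its first divisions. Nlrp5 (also called Mater), one of its core proteins, read 54.6, 50.0, 72.0 and 30.1 CPM in the younger controls and 52.2, 50.6, 57.2 and 45.9 in On T. The On T values fell inside the control range, and the difference of -0.01 in log2 (SE 0.20, edgeR adjusted p = 0.992) turned to 0.01 with median-of-ratios size factors. In the older controls Nlrp5 read 32.1, 41.3, 29.8 and 26.6 CPM and in Post T 34.8, 46.2, 45.5 and 36.5, which overlap (log2 0.33, SE 0.20, edgeR adjusted p = 0.366). Across the group, with Ooep, Padi6, Tle6, Khdc3, Nlrp2 and Nlrp4f, log2 fold changes were -0.31 to -0.01 in On T, 0.05 to 0.33 in Post T and -0.70 to -0.34 between the controls. Padi6, an enzyme family member that forms the cytoplasmic lattices of the oocyte, and Tle6 were among the most abundant of the 36 genes per length, with median levels of 54.3 and 57.3 TPM. The counts of Khdc3 are uncertain, because 38.5% of its exon bases are shared with an overlapping gene, Gm20509, on the same strand; that gene itself had 0 to 5 counts in a library. Nlrp14, Nlrp9a and Nlrp9b, further NLR proteins of oocytes, ran from -0.38 to -0.27 in On T and from 0.02 to 0.20 in Post T, with no call.

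The genes of meiotic arrest and of the maternal store of the egg were also not called in any comparison. Mos, the kinase that holds the mature egg in metaphase, read 8.73, 6.65, 9.84 and 4.08 CPM in the younger controls and 6.82, 6.58, 5.75 and 5.75 in On T (log2 -0.24, SE 0.20, edgeR adjusted p = 0.543). The later groups read 5.57, 5.53, 5.30 and 4.43 in controls and 5.53, 6.93, 6.89 and 6.34 in Post T (log2 0.30, SE 0.20, edgeR adjusted p = 0.427). In both cases the groups overlapped. Gpr3, the receptor that keeps oocytes arrested through cyclic AMP, was low at 0.433 to 1.38 CPM and differed by -0.34 (SE 0.31) and 0.17 (SE 0.31).

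Dppa3, a maternal protein that protects DNA methylation after fertilisation, read 19.1, 15.0, 19.9 and 10.0 CPM in the younger controls and 15.8, 15.5, 16.1 and 15.6 in On T. The On T libraries were tightly grouped inside the control range (log2 -0.02, SE 0.19, edgeR adjusted p = 0.960). The older controls read 12.6, 10.6, 10.5 and 7.57 and Post T 9.76, 13.2, 14.0 and 10.6 (log2 0.21, SE 0.19, edgeR adjusted p = 0.599). Zar1, which stores maternal messenger RNA, Npm2, a chromatin chaperone of the egg, and Kpna7, an importin of oocytes and early embryos, ran from -0.36 to -0.23 in On T and from 0.16 to 0.34 in Post T without a call.

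Among the RNA-binding proteins of germ cells, Ddx4 (vasa), a helicase of germ cell granules, read 3.33, 3.80, 3.96 and 2.00 CPM in the younger controls and 3.87, 4.32, 4.13 and 3.61 in On T. The groups overlapped (log2 0.28, SE 0.18, edgeR adjusted p = 0.403), and Ddx4 was the only 1 of the 4 genes of this group above 0. The older controls read 2.88, 2.90, 2.75 and 2.36 and Post T 2.41, 3.12, 2.82 and 3.23 CPM (log2 0.09, SE 0.19, edgeR adjusted p = 0.853). All Post T libraries lay below all On T libraries, but the difference of -0.46 (SE 0.19) was not called (edgeR adjusted p = 0.119). Dazl, which promotes translation of stored messages, read 5.23, 5.36, 5.60 and 3.69 in the younger controls and 3.52, 6.22, 3.82 and 3.70 in On T, so that 3 of 4 On T libraries lay near the lowest control (log2 -0.21, SE 0.21, edgeR adjusted p = 0.617). It read 4.29, 3.93, 4.80 and 2.66 in the older controls and 4.55, 3.98, 3.53 and 4.13 in Post T (log2 0.05, SE 0.21, edgeR adjusted p = 0.928). Btg4, which helps to clear maternal messages, and Ybx2, which stabilises them, were not called in either comparison (log2 -0.29 and -0.08 in On T, 0.13 and 0.32 in Post T).

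Uchl1, a deubiquitinating enzyme that is abundant in oocytes and also in neurons, was the most abundant of the 36 per length, with a median of 129 TPM, and it fell in both treated groups. It read 181, 175, 241 and 159 CPM in the younger controls and 85.6, 59.1, 71.3 and 71.9 in On T. The older controls read 99.7, 173, 112 and 111 and Post T read 52.0, 58.4, 62.3 and 51.3 CPM. In each comparison every treated library lay below every control, which held for 7.92% of all genes in On T and 6.92% in Post T. The mean was 189 ± 35.9 CPM in the younger controls and 72.0 ± 10.8 in On T (SD, n = 4), a fall with a log2 of -1.39 and an SE of 0.17 (adjusted p = 5.70e-05 by edgeR). It was 124 ± 33.2 CPM in the older controls and 56.0 ± 5.30 in Post T, with a log2 of -1.14 and an SE of 0.17 (adjusted p = 0.000138 by edgeR). Both calls held under all 25 alternatives run. Uchl1 (ENSMUSG00000029223) is protein-coding and annotated at chromosome 5, plus strand, 66676091 to 66687234. The difference between the effects was 0.25 (SE 0.23, edgeR adjusted p = 0.702). Among the exon bases of Uchl1, 18.1% lie opposite those of Uchl1os, which had 0 or 1 counts in a library. Without Uchl1 the summed level of the other 35 genes was 448 to 936 TPM in the younger controls, 556 to 643 in On T, 411 to 537 in the older controls and 474 to 596 in Post T.

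The remaining oocyte genes with Uchl1 in the last role group were Oosp1, a secreted oocyte protein, Bcl2l10, a BCL2 family member of oocytes, Oas1d, Tcl1, a co-activator of AKT, and Omt2b. None was called in any comparison. Tcl1 had the highest difference between effects of the 36, at 0.69 (SE 0.28, edgeR adjusted p = 0.255). Omt2b shares 18.2% of its 150-base windows with its neighbour Omt2a, which had 103 to 234 counts in a library, and how reads were divided between this pair is uncertain.

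To describe each gene against the other oocyte genes of the same ovary, its log2(CPM + 0.5) was also set against the mean of the 36 genes in the same library. The added 0.5 shrinks differences of genes with levels near it, such as Sohlh2 (mean 0.456 CPM in the younger controls), Figla and Gpr3. The relative values of such genes cannot be ranked in size against those of more abundant genes, and subtracting the mean does not fully remove the amount of oocyte RNA from them. That mean was 3.73 ± 0.41 in the younger controls, 3.62 ± 0.11 in On T, 3.28 ± 0.16 in the older controls and 3.43 ± 0.15 in Post T (SD, n = 4). On this scale Sohlh1 was 0.84 higher in On T than in its controls, Sohlh2 0.74, Figla 0.44 and Ddx4 0.40, while the value for Uchl1 was -1.27. In Post T the relative value of Uchl1 was -1.26, and Sohlh1, Sohlh2 and Figla were at -0.31, -0.11 and -0.09. The zona genes and Nobox, at 0.02 to 0.16 in On T, stayed near the mean. These relative values are a description of the same counts and were not tested.

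**Figure D4:**
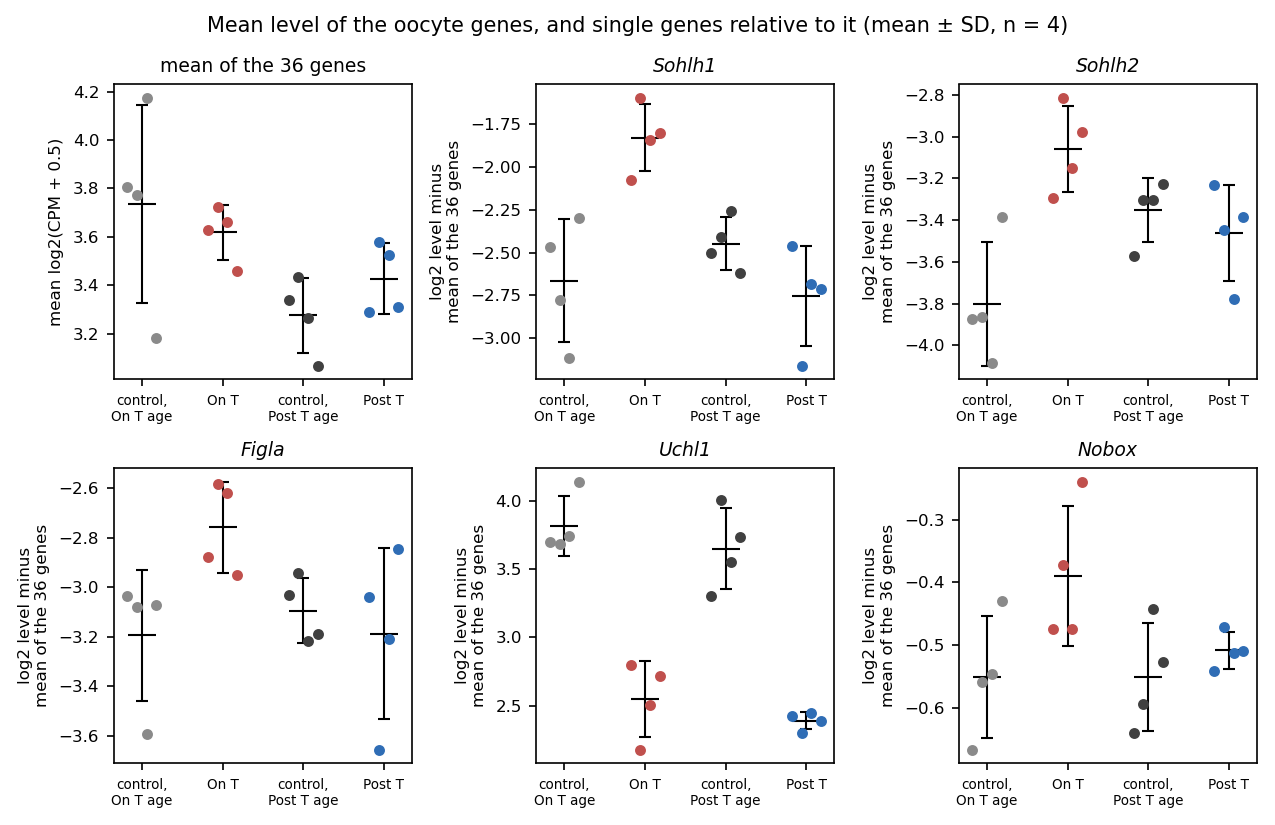
Mean log2(CPM + 0.5) of the 36 oocyte genes in each library (first panel), and the log2 level of 5 genes minus that mean (other panels), with group mean and SD (bars, n = 4). Relative to the list, all 4 On T libraries of Sohlh1 and Sohlh2 lie above those of their controls, and Uchl1 lies below its controls in both treated groups.

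A second list of oocyte genes, 38 of its 39 symbols in the table and none shared with the first, was read in the same fit. In On T 1 of them was called, Kit, with 32 of 38 below 0 and a median of -0.24. In Post T Kit was again the only call, with 35 of 38 above 0 and a median of 0.20. Between the controls none was called by edgeR, 37 of 38 lay below 0, and the median was -0.49. Over all genes, 9.27%, 12.3% and 0% were called in these 3 comparisons, and the median was -0.01 in each. The 38 genes were read from the same ovaries as the 36, so the 2 lists are not independent. Kit, the receptor for Kit ligand on oocytes and also on theca and interstitial cells, read 119, 61.9, 73.1 and 74.0 CPM in the younger controls and 294, 333, 254 and 258 in On T. It read 38.7, 62.9, 41.0 and 59.0 in the older controls and 119, 114, 130 and 220 in Post T. Every treated library lay above every control of its age, and Kit was higher in On T by 1.79 (SE 0.24, edgeR adjusted p = 0.000137) and in Post T by 1.53 (SE 0.24, edgeR adjusted p = 0.000231). Its ligand gene Kitl, made by granulosa cells, was higher too, by 0.83 (SE 0.12, edgeR adjusted p = 0.000368) and by 1.06 (SE 0.12, edgeR adjusted p = 1.41e-05). Post T lay below On T for Kit (log2 -0.96, SE 0.23, edgeR adjusted p = 0.0104) and for Mael, a germ cell protein that represses transposons (log2 -1.17, SE 0.23, edgeR adjusted p = 0.00250). These were 2 of the 38 genes, beside 13.3% of all genes called. The older controls had lower means than the younger ones too, at 50.4 against 82.1 CPM for Kit and 1.73 against 2.22 for Mael. No gene of this list had a called difference between the Post T and the On T effect by edgeR.

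Among 13 genes of meiotic prophase, the stage that oocytes enter before birth, 9 had enough counts to be tested. Sycp3, a protein of the synaptonemal complex, read 1.25, 1.15, 1.02 and 0.922 CPM in the younger controls and 2.21, 3.51, 2.43 and 2.22 in On T, with no overlap. In the later groups it read 0.935, 1.56, 1.16 and 1.3 in controls and 0.418, 0.892, 0.781 and 1.24 in Post T. It was higher in On T by 1.24 (SE 0.27, edgeR adjusted p = 0.00667), and the difference of the effects was -1.82 (SE 0.39, edgeR adjusted p = 0.0137). Both calls were lost without libraries 3 and 4 of the younger controls, at adjusted p of 0.119 and 0.114. Smc1b, a meiotic cohesin subunit, was higher in On T (log2 0.81, SE 0.21, edgeR adjusted p = 0.0210), a call lost, among others, without library 2 of the younger controls (0.0751), without their library 4 (0.0737), without their libraries 3 and 4 together (0.0747) and without On T library 2 (0.0637). Rec8, another meiotic cohesin subunit, went the other way. It read 7.63, 5.02, 8.02 and 5.53 CPM in the younger controls and 4.80, 1.61, 4.05 and 3.15 in On T, which did not overlap (log2 -0.94, SE 0.26, edgeR adjusted p = 0.0300). That call was lost, among others, without library 1 (0.0725) or 3 (0.0815) of the younger controls, without their libraries 3 and 4 together (0.156) and without On T library 4 (0.0778). In Post T Rec8 was higher than in the older controls (log2 0.81, SE 0.25, edgeR adjusted p = 0.0479), a call lost when any 1 of 10 libraries was left out. It was also lost with an age covariate (edgeR adjusted p = 0.0570) and by limma on log2(TPM + 1) (adjusted p = 0.0523) and on log2(TPM + 0.1) (adjusted p = 0.0836). The difference of the effects for Rec8 was called (log2 1.74, SE 0.36, edgeR adjusted p = 0.0116). Without libraries 3 and 4 of the younger controls that difference was 1.71, with an edgeR adjusted p of 0.0553. Against On T, Post T was lower in Sycp3, Smc1b and Syce1 and higher in Rec8. For Syce1, another protein of the synaptonemal complex, the log2 was -1.55 (SE 0.43, edgeR adjusted p = 0.0243), and the call was lost without On T library 2 (0.0510) and without Post T library 1 (0.0776), 2 (0.0657) or 3 (0.0725). Of the 9 genes tested, 2 were higher and 1 was lower in On T, and 1 was higher in Post T, where 9.27% and 12.3% of all genes were called. The difference of the effects was called for 1 higher and 1 lower, beside 3.25% of all genes. Post T against On T had 1 higher and 3 lower, beside 13.3%. In sign, 6 of the 9 lay above 0 in On T and 3 in Post T.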

How the data were processed

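RNA from 16 mouse ovaries was sequenced as poly(A)-selected, directional, paired-end libraries, per the labels. The submitters' processing notes name the build GRCm38 and, in no stated order, STAR 2.7.8a, RSEM 1.3.3, cutadapt 2.3 and FastQC 0.11.8; which annotation was used, and whether counting used strand, is not given in the sources used here. The deposited expected counts are the authors' estimates of reads per gene, not normalised, and all were whole numbers. The TPM values that the authors deposited allow for gene length as well as depth. FPKM values were left unused.

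edgeR 4.0.16 in R 4.3.3 was run on the expected counts. Its filterByExpr chose the genes (minimum count 10), libraries were scaled by TMM, and all 16 entered 1 fit with a mean per group. Contrasts used the quasi-likelihood F test with Benjamini-Hochberg adjustment over 18833 genes at 0.05, and SE is the size of the log2 fold change divided by the root of F. Levels are TMM-scaled CPM, as mean ± SD of 4 libraries. Totals of 26598055 to 52659637 counts set the precision of low genes such as Sohlh2. Positions and exon overlaps came from GENCODE vM21 (GRCm38), in which 55240 of 55426 identifiers were found, and upstream sequences from RefSeq (GRCm38.p6). Shared sequence was counted as windows of 150 bases found unchanged in another gene's transcripts.

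The 36 genes and the lists of further oocyte genes, meiotic prophase genes and markers of granulosa, luteal, theca, surface epithelial, oviduct cells and macrophages were chosen with earlier results of these data known. Every library's value is given for each of the 36 genes called in any contrast and, whatever their values, for 10 genes (Gdf9, Bmp15, Zp3, Figla, Nobox, Ddx4, Dazl, Nlrp5, Mos and Dppa3), and from each further list up to 3 called genes with the smallest p per contrast could be named. Alternatives were DESeq2 1.42.0, limma 3.58.1 on log2(TPM + 1) and log2(TPM + 0.1), scaling by median-of-ratios size factors, leaving the filter out or asking for 1 CPM in 4 libraries, fitting only the 8 libraries compared, a replicate block, an age covariate, and dropping each library in turn. A fit without libraries 3 and 4 of the younger controls was chosen after seeing the data. The edgeR test of On T against its controls was also tested on simulated data.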

Additional observations from a re-analysis of the deposited data

Results flagged for a closer look

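Of 144 sets of 4 libraries (36 genes in 4 groups), 6 held a library far from the other 3 by Dixon's criterion, where chance gives about 7.2. Bmp15 was 24.3 CPM in Post T library 2, beside 17.8 as the nearest value. Zp2 was 51.2 CPM in On T library 2, below a nearest value of 67.8. Nlrp9a was 5.32 CPM in On T library 3 against 4.26. Dazl was 6.22 CPM in On T library 2 against 3.82. Uchl1 was 173 CPM in library 2 of the older controls against 112. Omt2b was 2.88 CPM in Post T library 1, below 4.52. None of the 36 genes had a called difference between the Post T and the On T effect, and the 6 values are given without an explanation.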

How the results depend on the processing

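No call or median of the 36 genes changed direction under any alternative run. In On T 1746 genes were called, but 1130 by limma on log2(TPM + 1), 1081 to 2071 when a library was left out (1094 without library 2 of the younger controls), and 684 (220 higher, 464 lower) without libraries 3 and 4 of the younger controls together; 2 to 3 and 1 of the 36 were then called. For the difference of effects 612 genes were called, 999 (783 higher, 216 lower) by DESeq2, 264 without both control libraries and 453 to 735 with 1 library left out; 1 oocyte gene, Sohlh1, was called by DESeq2, by limma on log2(TPM + 1) and without library 4 of the older controls (0 to 1 over the libraries left out). Between the controls 0 genes were called, 20 (17 higher, 3 lower) without the filter, 173 by DESeq2 (133 higher, 40 lower), with 2 oocyte genes, and 0 to 9 with a library left out. Post T counts ran from 1753 to 2568 genes, with 1 oocyte gene, and Post T minus On T from 1757 to 3388, with 2 to 3. The cause of these shifts was not tested.

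Medians of the 36 genes with 1 library left out ran from -0.38 to -0.01 (On T), 0.13 to 0.30 (Post T), 0.21 to 0.59 (difference of effects), -0.68 to -0.35 (controls) and -0.21 to -0.09 (Post T minus On T). The labels do not say that replicate numbers pair mice, and same-numbered libraries correlated at -0.02 to 0.23 in the treatment comparisons. There, only On T library 2 and Post T library 2 matched the control of their own number best. With a replicate block 1676, 2274, 567, 0 and 2442 genes were called in the same order of comparisons, and of the oocyte calls it changed only Figla in Post T minus On T. Low counts limit Sohlh2 (9 to 42 in a library), Figla and Gpr3.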
